A study of Mus musculus with 12 samples.

Results

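Messenger RNA of 40 genes of the ATF4 branch of the stress response was followed in primary fibroblasts of mouse embryos (MEFs), connective tissue cells cultured directly from the embryo. The members were taken by symbol from a list of known ATF4 partners and target genes. All 40 were among the 24054 genes of the deposited table, and all 40 passed the low-count filter that left 14876 genes for testing. The cells carried 1 of 4 labelled genotypes, Blm KO (Blm -/-), Recql KO (Recql -/-), double KO (Blm -/- and Recql -/-) and WT, with 3 libraries each. Blm and Recql encode DNA helicases of the RecQ family, and the study set each mutant genotype against WT. All cultures, WT included, were kept in DMEM with 10% serum, antibiotics, 5% CO2 and 3% O2, with no added stress agent in the labels. The labels give neither the age of the embryos nor the design of the alleles, nor whether the 3 libraries of a label come from different embryos or cultures. The p-values below therefore measure only the spread between these libraries, which may be technical in part.

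ATF4 is the transcription factor of the integrated stress response. Kinases that sense amino acid shortage, unfolded protein, heme loss or double-stranded RNA phosphorylate the translation factor eIF2, which slows protein synthesis in general while the Atf4 message is translated more. ATF4 then binds DNA together with C/EBP-family partners and turns on genes for amino acid synthesis, amino acid import, tRNA charging and feedback on the response. Because much of this control acts on ATF4 protein, the Atf4 transcript alone does not report its activity.

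The libraries held 47758552 to 59296354 expected counts each. Levels are CPM, counts scaled to a common library size, with TMM factors that correct for library composition, and they are not divided by transcript length. Blm transcript stood at 5.64, 3.18 and 3.58 CPM in Blm KO libraries and at 5.66, 6.99 and 3.85 CPM in double KO libraries, against 21.9, 21.7 and 18.6 CPM in WT libraries. Recql transcript stood at 21.7, 24.3 and 29.8 CPM in the libraries labelled Recql KO and at 18.7, 35.6 and 24.7 CPM in those labelled double KO, against 25.6, 28.1 and 29.3 CPM in WT libraries. Neither difference passed the test (log2 fold change -0.13, edgeR adjusted p = 0.642 for Recql KO, and -0.07, 0.928 for double KO), so the Recql genotype rests on the labels, and Recql KO and double KO below mean the libraries so labelled. Summed Y-linked transcripts were above 100 CPM in all 3 WT libraries but in 1 library of each mutant genotype. Recql KO replicate 2 stood between, at 28.7 CPM beside 309.5 CPM of Xist, and the other 5 low libraries were at 0.676 to 6.25 CPM. Summed levels of 8 fibroblast markers ranged from 11848.5 to 15324.5 CPM in the libraries labelled Recql KO, against 23529.8 to 25028.5 CPM in WT libraries, with Col1a1, Col1a2 and Col3a1 lower and Dcn higher. The 6 endothelial markers summed to 3.08 to 4.48 CPM in the libraries labelled Recql KO, against 12.2 to 20.1 CPM in WT. The 6 epithelial markers summed to 9.56 to 14.7 CPM, against 23.3 to 46.4 CPM in WT libraries. The 6 neural markers summed to 91.7 to 150.3 CPM in the libraries labelled Recql KO, against 62.9 to 81.5 CPM in WT. Of the 2 tested, Tubb3 was called higher (edgeR adjusted p = 0.0213). The 6 muscle markers summed to 101 to 122 CPM in the libraries labelled Recql KO, against 61.8 to 121 CPM in WT. Of the 3 tested, Des was called lower. The 5 macrophage and blood markers summed to 3.95 to 6.02 CPM, against 5.89 to 14.3 CPM in WT libraries. Of the 4 tested, Cd68 and Lyz2 were called lower. Fibroblast sums were 28184.9 to 36376.7 CPM in Blm KO libraries and 28670.4 to 32865 CPM in double KO libraries, all above WT. Blm KO libraries lay below WT in endothelial (3.27 to 11.4 CPM) and epithelial (15.1 to 20.9 CPM) sums. Double KO libraries lay below WT in neural sums (41.4 to 59.6 CPM). The other sums of Blm KO and double KO overlapped WT, and none of these markers passed edgeR's test there. Listed markers under 1 CPM in every library were Pecam1 and Tie1 (endothelial), Epcam and Cldn4 (epithelial), and Myod1, Myog and Myf5 (muscle). Others were Elavl3, Dcx, Snap25 and Rbfox3 (neural) and Hbb-bs (red blood cells). They are named for their low level, and the other markers of these lists reached 1 CPM in at least 1 library. They do not show that these cell types were absent.

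The DNA element through which ATF4 and C/EBP partners act has the core TGATGNAA, or TTNCATCA on the other strand, where N is any base. It was searched on both strands in promoters of 300 bases (250 before to 50 after the start, RefSeq, GRCm38.p6). Of the 40 members, 32 were in that promoter table, and 12 of those held the core (37.5%), against 1219 of 27025 genes in the table (4.51%). The members were picked as known ATF4 targets, so this share describes the list and was not tested. The holders were Atf3, Trib3, Chac1, Asns, Pycr1, Slc1a4, Vldlr, Aars, Gars, Iars, Tars and Yars. Cth, Slc7a5, Slc7a3, Cars, Lars, Nars, Vars and Wars were not in the table. A match is a description of the letters and not a site of binding. Windows of 30 bases are shown for the 8 holders that passed the test in any comparison between genotypes, turned so that the core, in capitals, reads TGATGNAA from 5′ to 3′.
Atf3, chr1:191183425-191183454, plus strand: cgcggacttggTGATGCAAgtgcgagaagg
Trib3, chr2:152344028-152344057, plus strand: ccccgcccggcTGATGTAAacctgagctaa
Chac1, chr2:119351038-119351067, minus strand: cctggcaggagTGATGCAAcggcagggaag
Asns, chr6:7693214-7693243, minus strand: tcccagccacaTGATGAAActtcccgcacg
Pycr1, chr11:120643833-120643862, minus strand: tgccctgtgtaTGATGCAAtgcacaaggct
Slc1a4, chr11:20332699-20332728, plus strand: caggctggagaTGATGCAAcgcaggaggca
Vldlr, chr19:27216809-27216838, minus strand: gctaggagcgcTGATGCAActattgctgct
Yars, chr4:129189895-129189924, plus strand: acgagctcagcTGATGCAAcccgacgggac

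Whole promoters are shown for Atf3 and Pycr1, the 2 holders with the largest called change against WT. In them the core lies -110 and -103 bases from the annotated start. Capitals mark the core as it reads on the strand of the gene.
Atf3 promoter, chr1:191183284-191183583, minus strand: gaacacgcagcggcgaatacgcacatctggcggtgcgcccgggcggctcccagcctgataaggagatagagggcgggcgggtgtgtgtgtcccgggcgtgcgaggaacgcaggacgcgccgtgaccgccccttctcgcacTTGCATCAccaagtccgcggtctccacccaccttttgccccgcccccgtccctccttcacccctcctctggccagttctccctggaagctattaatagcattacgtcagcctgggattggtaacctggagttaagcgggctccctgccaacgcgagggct
Pycr1 promoter, chr11:120643699-120643998, minus strand: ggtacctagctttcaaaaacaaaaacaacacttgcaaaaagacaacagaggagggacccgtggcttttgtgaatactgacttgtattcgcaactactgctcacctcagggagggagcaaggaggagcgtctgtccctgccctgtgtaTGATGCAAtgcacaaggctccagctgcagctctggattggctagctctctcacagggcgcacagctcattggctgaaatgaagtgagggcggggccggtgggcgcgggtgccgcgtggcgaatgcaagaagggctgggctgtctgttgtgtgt

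Over the 4 genotypes, 24 of the 40 members differed somewhere (edgeR's robust quasi-likelihood F test, Benjamini-Hochberg adjusted p under 0.05, over all 14876 genes). The same test called 35.9% of all tested genes. In Blm KO against WT, 2 members passed the test, Slc1a4 higher and Atf3 lower, where 0.753% of all genes did (0.363% higher and 0.39% lower). In the libraries labelled Recql KO against WT, 12 members passed, 5 higher and 7 lower, which is 30% of the list beside 29.9% of all tested genes (14.2% higher and 15.6% lower). The share of members called in this comparison is thus that of the transcriptome, and what follows describes which members they were. The fibroblast, endothelial, epithelial, macrophage, muscle and neural markers given above and the number of libraries high in Y-linked transcripts differed between the same groups, and their part in these changes was not tested. In double KO against WT no member passed, where 0.121% of all genes did. These comparisons share the 3 WT libraries. Members whose libraries lay wholly above WT numbered 11 in Blm KO and 8 in Recql KO, where 12.7% and 23.9% of all genes did. Those wholly below WT numbered 2 in Blm KO and 7 in Recql KO, where 12.1% and 25.4% of all genes did. In bulk RNA such as this, fewer cells that express a gene and less of its RNA per cell cannot be told apart.

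**Figure D1:**
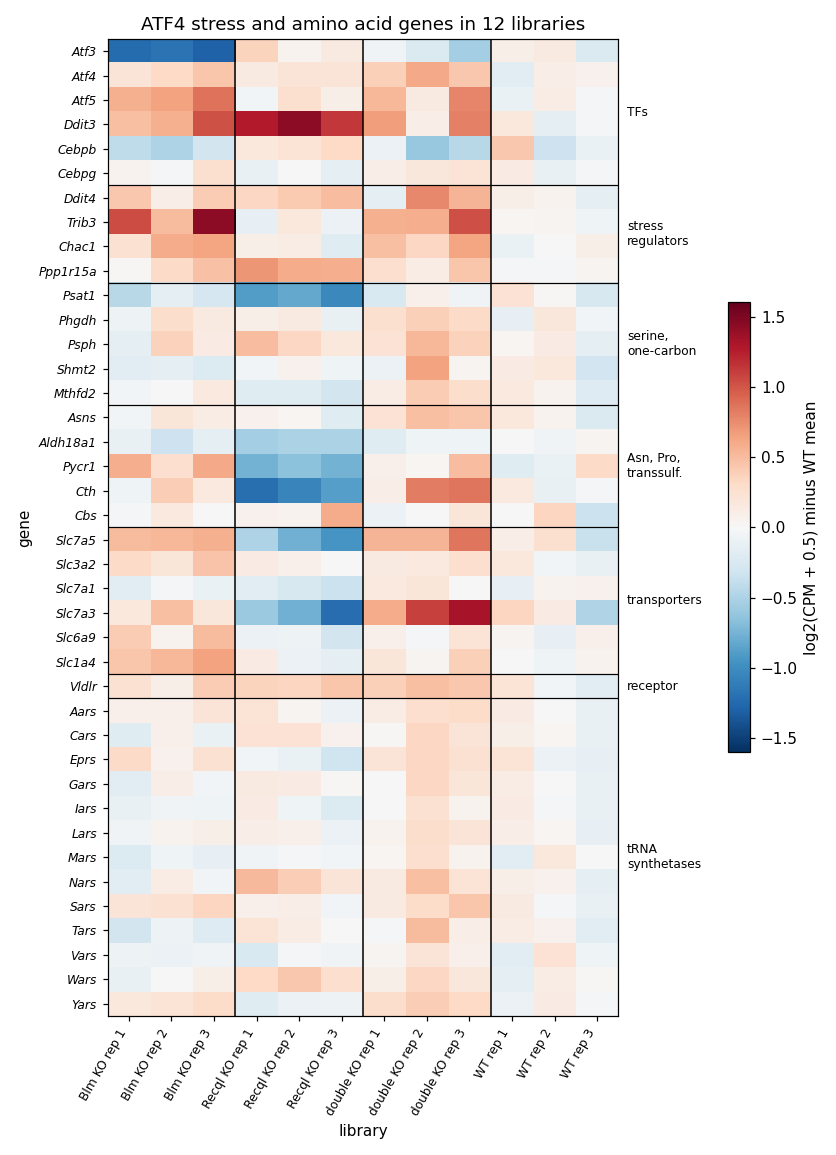
Level of each of the 40 genes (rows, ordered by role) in each of the 12 libraries (columns), as log2(CPM + 0.5) minus the mean of the 3 WT libraries; red is higher and blue lower. Cth, Psat1, Aldh18a1, Pycr1, Slc7a5 and Slc7a3 are blue in all 3 libraries labelled Recql KO, and Atf3 is blue in all 3 Blm KO libraries.

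Among the transcription factors, Atf3 and Ddit3 passed the test against WT, each in 1 genotype. Atf3, a stress-induced repressor and activator that ATF4 switches on, stood at 3.12, 3.27 and 2.96 CPM in Blm KO libraries, 10.4, 8.34 and 8.87 CPM in Recql KO, 7.69, 6.76 and 5.35 CPM in double KO, and 8.59, 8.87 and 6.75 CPM in WT. The 3 Blm KO libraries lay below all 9 others. Atf3 was 2.59-fold lower in Blm KO than in WT (log2 fold change -1.37 ± 0.16 SE, edgeR's adjusted p = 0.00432), and the call held when any 1 library was left out. Between the 1 Blm KO library and the 3 WT libraries high in Y-linked transcripts the log2 fold change was -1.36. With 1 mutant library no test is given for this and like values below, since the spread would come from the WT libraries alone. It was also higher in double KO than in Blm KO by 2.12-fold (log2 fold change 1.08 ± 0.16 SE, edgeR's adjusted p = 0.0168). It was the single member called there, in a comparison that called 1.96% of all genes and 0.934% as higher. That second call was lost without Blm KO replicate 3 or double KO replicate 2 (edgeR adjusted p up to 0.111) and with the compared groups only (0.0877). The promoter core of Atf3 is the first window printed above.

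Ddit3 encodes CHOP, the factor that ATF4 induces under prolonged stress and that takes part in cell death. It stood at 30.3, 32.1 and 44.0 CPM in Blm KO libraries, 52.4, 58.6 and 47.8 CPM in Recql KO, 34.3, 23.2 and 38.0 CPM in double KO, and 24.3, 19.4 and 21.1 CPM in WT. The libraries labelled Recql KO were the highest of all 12. The rise over WT was 2.45-fold (log2 fold change 1.29 ± 0.19 SE, edgeR's adjusted p = 0.00126), and it held in each fit that left out 1 library. Between the 1 library labelled Recql KO and the 3 WT libraries that were high in Y-linked transcripts the log2 fold change was 1.28. Blm KO libraries were all above WT as well, with a log2 fold change of 0.72 ± 0.19 SE that missed the threshold (edgeR adjusted p = 0.112).

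Atf4 itself stood at 161, 175 and 191 CPM in Blm KO libraries, 155, 162 and 161 CPM in Recql KO, 183, 213 and 189.8 CPM in double KO, and 124, 151 and 147 CPM in WT. All 9 mutant libraries were above the 3 WT libraries, and no comparison with WT passed edgeR's test. The nearest was double KO, with a log2 fold change of 0.47 ± 0.09 SE (edgeR adjusted p = 0.0919). DESeq2 called Atf4 in double KO (adjusted p = 0.00141) and Blm KO (0.0465) against WT, and edgeR's fit with the replicate number as a block called it in double KO (0.045). Atf5, a paralogue that is also controlled through eIF2, was at 301, 318 and 372 CPM in Blm KO libraries, 196, 242 and 216 CPM in Recql KO, 293, 223 and 349.6 CPM in double KO, and 189, 220.0 and 201 CPM in WT. Its Blm KO libraries did not overlap WT, with a log2 fold change of 0.70 ± 0.15 SE that missed the threshold (edgeR adjusted p = 0.0645). The C/EBP partners passed the test against WT in no genotype. Cebpb was at 22.1, 20.7 and 23.9 CPM in Blm KO libraries, 33.0, 34.1 and 36.6 CPM in Recql KO, 27.6, 19.1 and 21.4 CPM in double KO, and 39.8, 23.3 and 27.3 CPM in WT, where replicate 1 stood apart. Cebpg ranged from 48.5 to 64.5 CPM over all 12 libraries.

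Of the 4 stress regulators, Ppp1r15a passed the test against WT. It encodes GADD34, which recruits a phosphatase to eIF2 and so ends the response. It stood at 46.7, 57.3 and 63.8 CPM in Blm KO libraries, 75.7, 69.9 and 69.2 CPM in Recql KO, 55.5, 49.9 and 62.8 CPM in double KO, and 45.5, 45.1 and 47.5 CPM in WT. The 3 libraries labelled Recql KO lay above all others, 1.56-fold over WT (log2 fold change 0.64 ± 0.11 SE, edgeR's adjusted p = 0.00288), in every fit that left out 1 library. Among libraries high in Y-linked transcripts, 1 of them Recql KO, the log2 fold change was 0.72.

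Trib3, a pseudokinase that binds ATF4 and CHOP and limits them, had its highest values in Blm KO. It stood at 53.7, 36.6 and 70.2 CPM in Blm KO libraries, 23.3, 29.1 and 24.0 CPM in Recql KO, 38.3, 38.8 and 53.2 CPM in double KO, and 26.2, 26.5 and 24.5 CPM in WT. The Blm KO and double KO libraries did not overlap WT, but the Blm KO libraries were far apart, and the log2 fold change of 1.06 ± 0.21 SE just missed the threshold (edgeR adjusted p = 0.0506). Chac1, an enzyme that breaks down glutathione, was at 16.9, 21.6 and 22.2 CPM in Blm KO libraries, 15.2, 15.5 and 12.4 CPM in Recql KO, 20.1, 18.0 and 22.3 CPM in double KO, and 13.2, 14.3 and 15.2 CPM in WT. Blm KO and double KO were again without overlap with WT, and neither passed (edgeR adjusted p = 0.109 for Blm KO and 0.192 for double KO). Ddit4, an inhibitor of mTORC1 signalling, ranged from 25.3 to 48.1 CPM over all libraries and passed in no comparison.

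**Figure D2:**
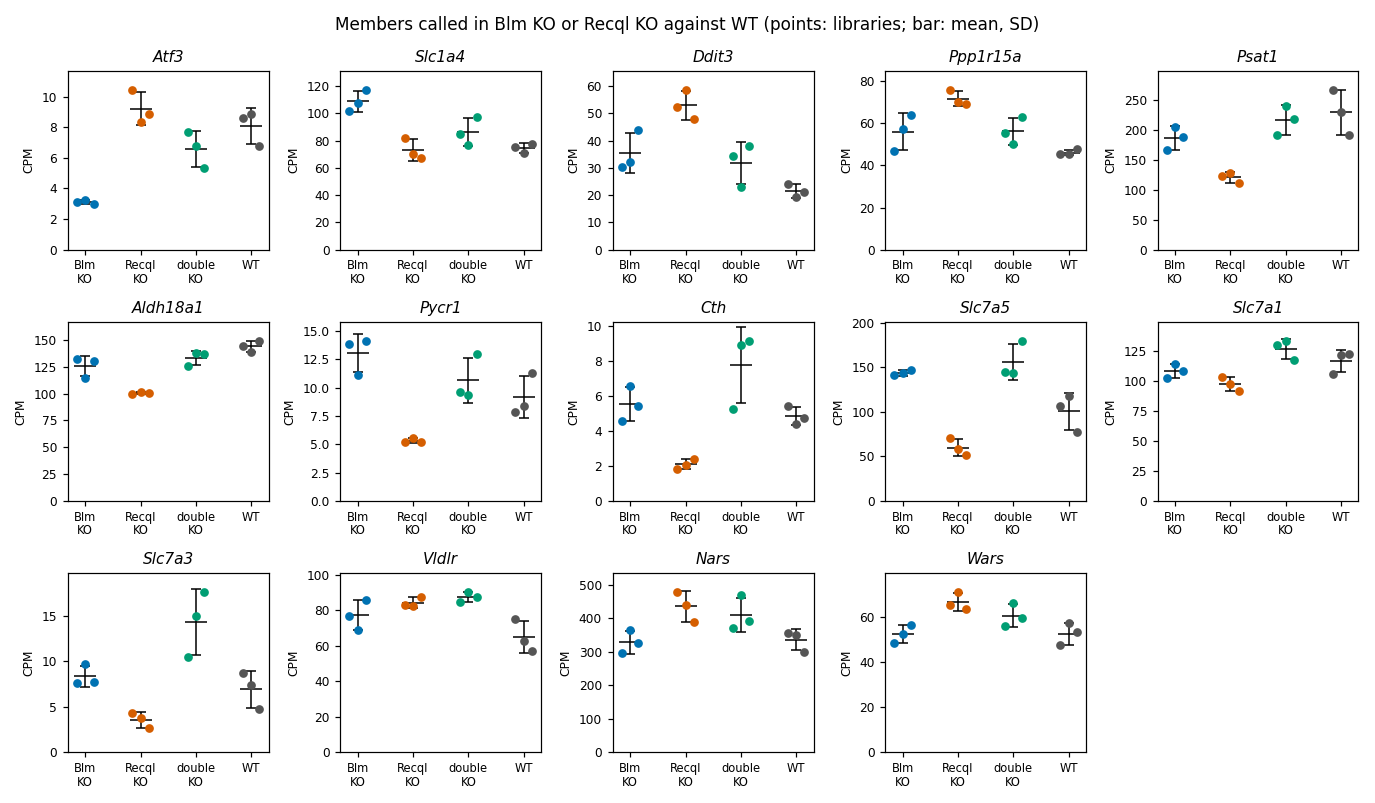
TMM-scaled CPM of the 14 members that passed the test in Blm KO or in Recql KO against WT, each panel on its own scale from 0; points are libraries, and the bars give the mean and SD of 3 libraries. Atf3 averages 3.12 ± 0.15 CPM in Blm KO and 8.07 ± 1.15 CPM in WT, and Cth averages 2.09 ± 0.29 CPM in Recql KO and 4.87 ± 0.53 CPM in WT.

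Enzymes that make serine, proline and cysteine held 4 of the 7 falls in the libraries labelled Recql KO, where 15.6% of all genes fell. Psat1, the aminotransferase of serine synthesis, was at 167, 206 and 188 CPM in Blm KO libraries, 123, 129 and 111 CPM in Recql KO, 192, 241 and 218 CPM in double KO, and 268, 231 and 191 CPM in WT. Every Recql KO library was below every other library, and the level was 1.90-fold lower than in WT (log2 fold change -0.93 ± 0.13 SE, edgeR's adjusted p = 0.00102). The other 2 enzymes of the same pathway were not called. Phgdh, which carries out the first step, was at 133, 137 and 114 CPM in Recql KO libraries, against 114, 141 and 120.4 CPM in WT libraries. Its log2 fold change was 0.04 with a 95% interval of -0.22 to 0.30 (edgeR adjusted p = 0.822). Psph, the last step, had a log2 fold change of 0.34 ± 0.15 SE in Recql KO against WT (edgeR adjusted p = 0.101), with 26.1% of its exon bases shared with Cct6a. The mitochondrial folate enzymes Shmt2 and Mthfd2, which pass the one-carbon unit of serine to folate, had log2 fold changes of -0.03 ± 0.18 SE and -0.23 ± 0.10 SE, and neither passed.

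Proline synthesis starts with Aldh18a1 and ends with Pycr1, and both fell. Aldh18a1 was at 132, 115 and 130.4 CPM in Blm KO libraries, 99.2, 102 and 101 CPM in Recql KO, 126, 138 and 137 CPM in double KO, and 145, 139 and 149 CPM in WT. The Recql KO values lay close together below all others, 1.43-fold under WT (log2 fold change -0.52 ± 0.07 SE, edgeR's adjusted p = 0.000771, the smallest of the list in this comparison). Pycr1, whose promoter is printed above, was at 13.9, 11.1 and 14.1 CPM in Blm KO libraries, 5.19, 5.60 and 5.16 CPM in Recql KO, 9.62, 9.34 and 13.0 CPM in double KO, and 7.87, 8.42 and 11.3 CPM in WT. It was 1.73-fold lower in Recql KO than in WT (log2 fold change -0.79 ± 0.17 SE, edgeR's adjusted p = 0.00751), while its Blm KO mean was above that of WT (log2 fold change 0.50 ± 0.17 SE, edgeR's adjusted p = 0.163).

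Cth makes cysteine from cystathionine, the last step of transsulfuration. It was at 4.59, 6.55 and 5.45 CPM in Blm KO libraries, 1.82, 2.07 and 2.40 CPM in Recql KO, 5.26, 8.90 and 9.15 CPM in double KO, and 5.45, 4.41 and 4.74 CPM in WT. The Recql KO libraries did not overlap any other group, and the fall against WT was 2.33-fold (log2 fold change -1.22 ± 0.23 SE, edgeR's adjusted p = 0.00351). Cbs, the step before it, was at 0.493 to 1.39 CPM over all libraries, with a log2 fold change of 0.36 ± 0.33 SE in Recql KO against WT (edgeR adjusted p = 0.434). Asns, the asparagine synthetase that is often read as the marker of ATF4 activity, was at 128, 151 and 144 CPM in Blm KO libraries, 138, 135 and 116 CPM in Recql KO, 155, 184 and 179.9 CPM in double KO, and 149, 137 and 113 CPM in WT. It overlapped WT in the libraries labelled Recql KO, with a log2 fold change of -0.04 and a 95% interval of -0.31 to 0.23 (edgeR adjusted p = 0.838). The falls of Psat1, Aldh18a1, Pycr1 and Cth against WT held in all 12 fits that left out 1 library. With only libraries high in Y-linked transcripts (1 Recql KO, 3 WT) the log2 fold changes were -1.42 for Cth, -0.91 for Psat1, -0.54 for Aldh18a1 and -0.83 for Pycr1.

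Among the 6 amino acid transporters, 3 fell in the libraries labelled Recql KO, where 15.6% of all genes did. In Blm KO 1 rose, where 0.363% of all genes did. Slc7a5, the LAT1 carrier of leucine and other large neutral amino acids, was at 141, 143 and 148 CPM in Blm KO libraries, 70.1, 58.0 and 51.2 CPM in Recql KO, 145, 144 and 179.5 CPM in double KO, and 106, 118 and 77.3 CPM in WT. The 4 groups fell into 3 levels, with Recql KO lowest, WT between, and Blm KO and double KO overlapping each other at the top. Neither Blm KO nor double KO passed edgeR's test against WT for this gene. Recql KO was 1.68-fold below WT (log2 fold change -0.75 ± 0.16 SE, edgeR's adjusted p = 0.00652), in every fit that left out 1 library. With only libraries high in Y-linked transcripts its log2 fold change was -0.52. Slc3a2, the heavy chain that pairs with Slc7a5 at the cell surface, was at 176, 170.3 and 160.5 CPM in Recql KO libraries, against 180.3, 156 and 148 CPM in WT libraries, and did not pass (log2 fold change 0.07, edgeR adjusted p = 0.622).

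The cationic amino acid carriers Slc7a1 and Slc7a3, which bring in arginine and lysine, also fell against WT. Slc7a1 was at 103, 114 and 108 CPM in Blm KO libraries, 103, 97.9 and 91.6 CPM in Recql KO, 129.9, 134 and 117 CPM in double KO, and 106, 122 and 123 CPM in WT. The Recql KO libraries lay below WT without overlap. Slc7a1 values were not whole in 11 libraries, a sign that reads were shared with other transcripts. The 1.20-fold fall of Slc7a1 in Recql KO (log2 fold change -0.26 ± 0.08 SE, edgeR's adjusted p = 0.0342) lost its call without Recql KO replicate 2 or 3 or WT replicate 2 or 3 (up to 0.117), with the compared groups only (0.0505) and with Y-linked level added as a term (0.0847). Slc7a3, on the X chromosome, was at 7.63, 9.65 and 7.73 CPM in Blm KO libraries, 4.30, 3.75 and 2.60 CPM in Recql KO, 10.4, 15.0 and 17.6 CPM in double KO, and 8.69, 7.43 and 4.70 CPM in WT. Recql KO was below and double KO above all WT libraries. The fall in Recql KO was 1.95-fold (log2 fold change -0.97 ± 0.27 SE, edgeR's adjusted p = 0.0213), and it lost its call without Recql KO replicate 2 or 3 or WT replicate 1 or 2 (up to 0.0757) and in a fit with Y-linked level added as a term (0.0578).

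Slc1a4, a carrier of alanine, serine and cysteine, was the member that rose in Blm KO. It was at 102, 108 and 117 CPM in Blm KO libraries, 82.1, 70.2 and 67.1 CPM in Recql KO, 85.2, 77.0 and 97.1 CPM in double KO, and 75.3, 71.0 and 77.9 CPM in WT. The 3 Blm KO libraries were the highest of all 12. The rise over WT was 1.46-fold (log2 fold change 0.54 ± 0.10 SE, edgeR's adjusted p = 0.0471), close to the threshold, and it lost its call in 9 of 12 fits that left out 1 library (without any 1 library of Blm KO or WT, Recql KO replicate 2 or 3, or double KO replicate 1, with adjusted p up to 0.211) and with Y-linked level added as a term (0.205). Slc6a9, the glycine carrier GLYT1, ranged from 30.3 to 53.4 CPM over all libraries and passed in none of the 5 pairwise comparisons, and 42.3% of its exon bases are shared with other genes.

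Vldlr, a lipoprotein receptor that ATF4 is known to induce, was at 76.8, 69.2 and 86.0 CPM in Blm KO libraries, 83.0, 82.3 and 87.8 CPM in Recql KO, 84.6, 90.2 and 87.6 CPM in double KO, and 75.2, 62.7 and 57.2 CPM in WT. The Recql KO and double KO libraries lay above all WT libraries, and Blm KO overlapped WT. The rise in Recql KO was 1.30-fold (log2 fold change 0.37 ± 0.10 SE, edgeR's adjusted p = 0.0218). That call was lost without Recql KO replicate 1 or 3 or WT replicate 2 or 3 (up to 0.0738).

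The 13 cytosolic aminoacyl-tRNA synthetases, which charge tRNAs with their amino acids, had small differences. In the libraries labelled Recql KO, 2 rose and 11 did not pass, with log2 fold changes over the list from -0.16 to 0.38. The 2 are 15.4% of these synthetases, near the 14.2% of all genes called higher. Nars, for asparagine, was at 477, 440.3 and 387 CPM in Recql KO libraries, against 357, 349.8 and 299 CPM in WT libraries (1.30-fold, log2 fold change 0.38 ± 0.12 SE, edgeR's adjusted p = 0.0392). Wars, for tryptophan, was at 65.3, 70.8 and 63.2 CPM in Recql KO libraries, against 47.4, 57.0 and 53.1 CPM in WT libraries (1.27-fold, log2 fold change 0.34 ± 0.09 SE, edgeR's adjusted p = 0.0203). Both groups of libraries were free of overlap for these genes, but Nars lost its call without Blm KO replicate 3, Recql KO replicate 1 or 2, or WT replicate 2 or 3 (up to 0.121), and Wars without Recql KO replicate 2 or WT replicate 1 (up to 0.0736). Nars values were not whole in all 12 libraries, a sign that reads were shared with other transcripts. The same held in 11 libraries for Slc3a2 and for Slc7a1. In Blm KO against WT none of the 13 passed edgeR's test or DESeq2, 2 had an unadjusted p under 0.05, and 5 log2 fold changes were positive and 8 negative.

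**Figure D3:**
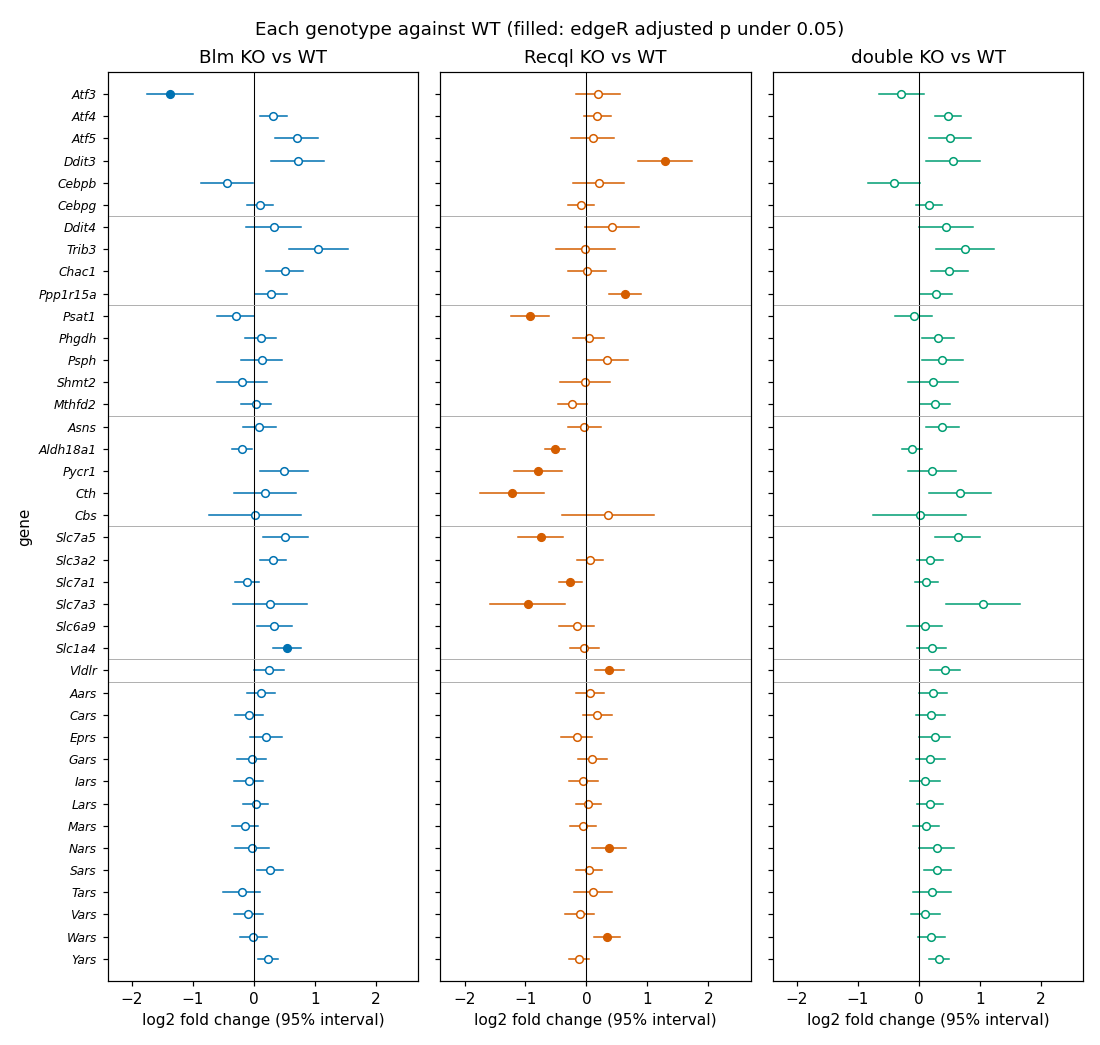
Log2 fold change of each of the 40 genes with its 95% interval, for Blm KO, Recql KO and double KO against WT from left to right; filled points passed edgeR's test at an adjusted p under 0.05. Blm KO has 2 filled points, Recql KO has 12 on both sides of 0, and double KO has none, with 36 of 40 points to the right of 0.

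Against WT, no member of the libraries labelled double KO passed edgeR's test, 21 of 40 had an unadjusted p under 0.05, beside 1605 of all 14876 genes, and DESeq2 called 7 members, all higher. In Blm KO against the same WT libraries 18 of 40 had an unadjusted p under 0.05, beside 2806 of all genes, 26 estimates were positive, and DESeq2 called 9 members, 8 of them higher. The 7 in double KO were Atf4, Trib3, Chac1, Slc7a5, Slc7a3, Vldlr and Yars. The estimated log2 fold change was positive for 36 of 40 members, with a median log2 fold change of 0.22, beside 7670 of 14876 genes and a median of 0.01 over all tested genes. The 4 negative ones were Atf3, Cebpb, Psat1 and Aldh18a1. In 14 members every double KO library was above every WT library, and in 1 every library was below, where 7.28% of all genes were wholly above and 6.8% wholly below. All 13 synthetases had a positive estimate, from 0.10 to 0.33, but only 3 had every double KO library above every WT library. Their median log2 level minus the WT mean was 0.05, 0.33 and 0.21 in double KO libraries, against 0.11, 0.03 and -0.12 in WT. Over all 40 members that median was 0.12 in double KO replicate 1, near the 0.09 of WT replicate 1. The members share the same libraries, so these counts are not separate evidence. The largest estimate of the list was that of Slc7a3 (log2 fold change 1.05 ± 0.26 SE, edgeR's adjusted p = 0.159).

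Set against the libraries labelled Recql KO, the double KO libraries differed in 18 members (45%), with 24.7% of all genes called (13.2% higher and 11.6% lower). In 21 members every double KO library was above every Recql KO library and in 4 every one was below, where 22.5% and 21.1% of all genes were. This comparison and Recql KO against WT use the same 3 Recql KO libraries, so they are not separate evidence. Fibroblast marker sums were 28670.4 to 32865 CPM in double KO and 11848.5 to 15324.5 CPM in Recql KO libraries. The part of such marker differences in these changes was not tested. The 14 that were higher were Atf4, Trib3, Chac1, Psat1, Mthfd2, Asns, Aldh18a1, Pycr1, Cth, Slc7a5, Slc7a1, Slc7a3, Eprs and Yars. The differences of largest size were those of Slc7a3 (4.03-fold, log2 fold change 2.01 ± 0.27 SE, edgeR's adjusted p = 0.000906), Cth (3.72-fold, 1.89 ± 0.23 SE, 0.000535), Slc7a5 (2.61-fold, 1.39 ± 0.16 SE, 0.000441) and Pycr1 (2.00-fold, 1.00 ± 0.17 SE, 0.00288). For each of these 4, every double KO library lay above every Recql KO library. The others had log2 fold changes from 0.29 (Atf4, edgeR adjusted p = 0.0433) to 0.84 (Psat1, 0.00183).

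Yars, the tyrosyl-tRNA synthetase, was at 103, 107 and 113 CPM in Blm KO libraries, 80.4, 85.8 and 86.9 CPM in Recql KO, 111, 121 and 115 CPM in double KO, and 86.1, 100.3 and 89.4 CPM in WT. Double KO was 1.37-fold above Recql KO (log2 fold change 0.46 ± 0.07 SE, edgeR's adjusted p = 0.00191). Eprs, the synthetase for glutamate and proline, was at 468, 397 and 449.6 CPM in Blm KO libraries, 369, 353 and 303 CPM in Recql KO, 439.5, 478 and 451 CPM in double KO, and 443, 356 and 347 CPM in WT. Its double KO libraries lay above all Recql KO libraries (log2 fold change 0.42 ± 0.11 SE, edgeR's adjusted p = 0.0221). Mthfd2 was at 85.7, 88.5 and 98.1 CPM in Blm KO libraries, 77.1, 77.1 and 71.9 CPM in Recql KO, 95.7, 117 and 107 CPM in double KO, and 98.2, 91.5 and 76.0 CPM in WT. Here too double KO was above Recql KO without overlap (log2 fold change 0.50 ± 0.10 SE, edgeR's adjusted p = 0.00719).

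The 4 members that were lower in double KO than in Recql KO were Ddit3 (1.66-fold, log2 fold change -0.73 ± 0.19 SE, edgeR's adjusted p = 0.0193), Cebpb (-0.61 ± 0.19 SE, 0.0359), Atf3 (-0.48 ± 0.16 SE, 0.0492) and Ppp1r15a (-0.35 ± 0.11 SE, 0.0445). None of these 4 calls held without Recql KO replicate 1 or 2, and 1 held without Recql KO replicate 3 or double KO replicate 2. Of the 12 fits that left out 1 library, Ddit3 was called in 10, Cebpb in 6, Ppp1r15a in 5 and Atf3 in 2. Of the 18 calls, 9 held in all 12 fits that left out 1 library, those of Psat1, Mthfd2, Aldh18a1, Pycr1, Cth, Slc7a5, Slc7a1, Slc7a3 and Yars. The count was 11 without Recql KO replicate 2, 10 without Recql KO replicate 3 and 11 without double KO replicate 3. With Y-linked level added as a term, the calls of Atf3 and Atf4 were lost. Double KO against Blm KO gave the 1 call for Atf3 described above, and 31 of 40 estimates were positive with a median log2 fold change of 0.15, beside 7549 of all 14876 genes and a median of 0.0048.

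The interaction asks whether the difference that goes with the Recql KO label depends on Blm, as the difference of double KO from Blm KO minus that of Recql KO from WT. It passed in 9 members, 7 positive and 2 negative, where 10.4% of all genes passed (5.86% positive and 4.58% negative). For Cth the log2 fold change was 0.49 ± 0.22 SE between double KO and Blm KO and -1.22 ± 0.23 SE between Recql KO and WT, an interaction of 1.71 ± 0.32 SE (edgeR adjusted p = 0.0115). For Slc7a3 the same 2 values were 0.78 ± 0.26 SE and -0.97 ± 0.27 SE (interaction 1.75 ± 0.37 SE, edgeR's adjusted p = 0.0189). For Psat1 they were 0.22 ± 0.13 SE and -0.93 ± 0.13 SE (interaction 1.14 ± 0.19 SE, edgeR's adjusted p = 0.00714). Ddit3 went the other way, with -0.16 ± 0.19 SE and 1.29 ± 0.19 SE (interaction -1.45 ± 0.27 SE, edgeR's adjusted p = 0.0123). The lower levels of Cth, Slc7a3 and Psat1, and the higher level of Ddit3, went with the Recql KO label when Blm was intact. They did not do so in the same measure when Blm was disrupted. Pycr1, which also fell in Recql KO, had no called interaction, and its mean was 10.6 CPM in double KO against 13.0 CPM in Blm KO. The calls for Ddit3, Psat1, Aldh18a1 and Cth held in all 12 fits that left out 1 library, that of Slc7a3 was lost without Blm KO replicate 3 (edgeR adjusted p = 0.0548), and the others held in 7 of 12 fits for Slc7a1, 4 for Atf3 and for Slc7a5, and 2 for Ppp1r15a. With Y-linked level added as a term, the interaction calls of Atf3, Ppp1r15a, Slc7a5 and Slc7a1 were lost (edgeR adjusted p from 0.0613 to 0.0783).

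**Figure D4:**
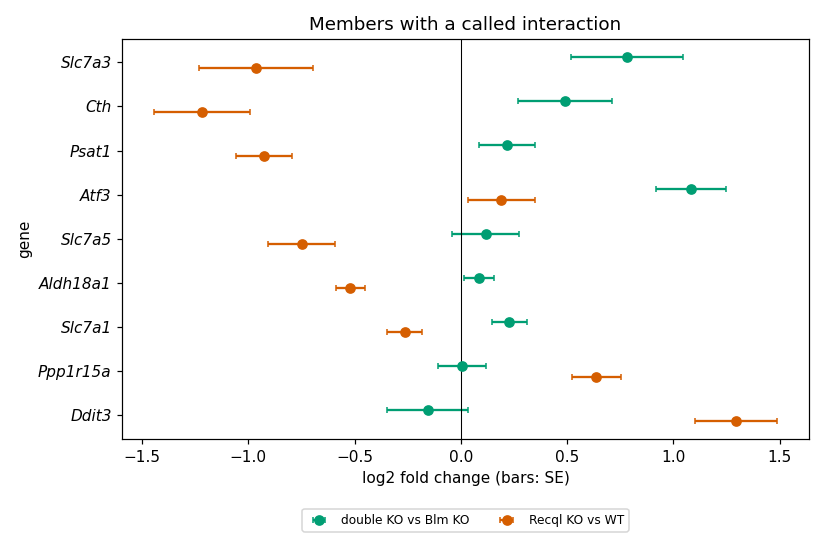
Log2 fold change with its SE for the 9 members whose interaction passed the test, with double KO against Blm KO drawn above Recql KO against WT in each row. Ddit3 and Ppp1r15a lie to the right of 0 in Recql KO against WT and near 0 in double KO against Blm KO, while Cth, Psat1, Slc7a5, Aldh18a1 and both Slc7a carriers of cationic amino acids lie to the left of 0 in the first and to the right in the second.

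Genes next to the list in the pathway were counted in the same way. Of 18 other ATF4 target genes, 7 rose and 4 fell in the libraries labelled Recql KO against WT (61.1%, beside 29.9% of all genes). The list was chosen with earlier results of these data known, so this share was not tested. Some of these calls held in as few as 2 of the 12 fits that left out 1 library. Some were also lost with Y-linked level added as a term. Slc1a5, the main glutamine carrier of proliferating cells, was at 11.2, 11.8 and 13.2 CPM in Recql KO libraries, against 38.2, 34.3 and 32.2 CPM in WT libraries (2.90-fold lower, log2 fold change -1.53 ± 0.14 SE, edgeR's adjusted p = 0.00016). In double KO libraries it was at 30.6, 37.6 and 39.1 CPM, 2.96-fold above the same Recql KO libraries (log2 fold change 1.57 ± 0.14 SE, edgeR's adjusted p = 0.000141). Slc38a2, another carrier of small neutral amino acids, was at 494, 509 and 530.1 CPM in Recql KO libraries, against 808, 779.9 and 722 CPM in WT libraries (log2 fold change -0.59 ± 0.08 SE, edgeR's adjusted p = 0.000869). Rises were seen in Ero1l, the oxidase of the endoplasmic reticulum (log2 fold change 1.23 ± 0.13 SE, edgeR's adjusted p = 0.00025), and Sqstm1, the autophagy receptor p62 (log2 fold change 0.60 ± 0.10 SE, edgeR's adjusted p = 0.00209). Slc7a11, the cystine carrier, named here after its values were seen, also rose (log2 fold change 1.00 ± 0.21 SE, edgeR's adjusted p = 0.00642), so the carriers of this list did not move as 1 group.

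Upstream, 2 of 15 genes for eIF2 kinases, eIF2 and its exchange factor rose in Recql KO against WT and 4 fell. That is 40% of this list, beside 29.9% of all genes. The 2 falls not named here held in 6 and 2 of the 12 fits that left out 1 library. Impact, an inhibitor of the amino acid sensor GCN2, was at 305, 301 and 263 CPM in Recql KO libraries, against 194, 198 and 196 CPM in WT libraries (log2 fold change 0.56 ± 0.12 SE, edgeR's adjusted p = 0.00621). Ppp1r15b, the constitutive partner of the eIF2 phosphatase, fell (log2 fold change -0.29 ± 0.07 SE, edgeR's adjusted p = 0.00853), as did Eif2ak3, the kinase PERK (log2 fold change -0.38 ± 0.09 SE, edgeR's adjusted p = 0.0114). Eif2ak2, the RNA sensor PKR, was at 205, 199.6 and 195 CPM in Recql KO libraries, against 84.7, 101 and 71.6 CPM in WT libraries (log2 fold change 1.22 ± 0.35 SE, edgeR's adjusted p = 0.0248). Its call was lost without any 1 Recql KO library or without WT replicate 1 or 3 (up to 0.0837), and with Y-linked level added as a term (0.0648). Among the genes for other tRNA synthetases, 2 of 10 cytosolic synthetases and complex scaffolds rose and 1 fell (30%), and 0 of 17 mitochondrial synthetases rose and 4 fell (23.5%). Of 18 other folate and one-carbon enzymes, 1 rose and 2 fell (16.7%). The shares of these lists of other synthetases and folate enzymes are near or below the 29.9% of all genes called. In Blm KO against WT no gene of these 5 lists passed edgeR's test, with 9 of 78 genes at an unadjusted p under 0.05 and 1 called by DESeq2, beside 2806 and 947 of all 14876 genes. In double KO against WT none passed either, with 12 of 78 at an unadjusted p under 0.05 and 3 called by DESeq2, beside 1605 and 337 of all genes.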

How the data were processed

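The submitters' processing notes name Bowtie2 2.1.0, RSEM 1.2.15 and mouse build mm10. The labels' protocols name polyadenylated RNA and a KAPA stranded kit; the annotation, the strand setting and the read length are not given in the sources used here. The values used are the expected counts that the authors deposited as 1 table for all 12 libraries, which RSEM estimates by sharing out reads that could come from several genes, so that 17.4% to 20.2% of a library's values are fractions.

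Expected counts were rounded and tested in R 4.3.3 with edgeR 4.0.16. Its low-count filter by group left 14876 genes with 99.99% of the counts, TMM factors were 0.960 to 1.03, and 1 robust quasi-likelihood model over the 4 groups had 8 residual degrees of freedom. P-values were Benjamini-Hochberg adjusted over all tested genes, and an adjusted p under 0.05 was called. A fold interval is the SE times the t quantile for 95%. In these libraries 3 counts equal 0.0508 to 0.0614 CPM. Pairs of libraries of 1 genotype differed beyond counting noise (chi-square over its degrees of freedom 25.5 to 167), so none was counted as a copy. The test was tried on simulated counts first. All members could be named; genes outside the list are the targeted genes, markers and up to 4 called genes per pathway list with the smallest adjusted p. The members and lists were chosen with earlier results of these data known. Exon overlaps come from GENCODE vM21.

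Alternatives were RLE scaling, no filter on low counts, CPM above 1 in 3 libraries, DESeq2 1.42.0, the compared groups only, the replicate number as a block, the Y-linked level as a covariate, only libraries with a Y-linked sum above 100 CPM, and leaving out each library. Same-numbered Blm KO and WT libraries deviated together for all 3 numbers (correlation 0.10 to 0.23). Double KO and WT libraries did so for numbers 2 and 3 (0.31 and 0.23) but not for number 1 (-0.11). Only Blm KO and WT paired for all 3 numbers, and nothing in the labels says what a shared number stands for.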

Additional observations from a re-analysis of the deposited data

Results flagged for a closer look

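The 9 members below are singled out because the difference that goes with the Recql KO label was not the same with Blm disrupted as with Blm intact, by edgeR's test of that interaction. The interaction on the log2 scale was positive for Aldh18a1 (0.604627, edgeR adjusted p = 0.00704), Psat1 (1.14103, 0.00714), Cth (1.70816, 0.0115), Slc7a3 (1.74692, 0.0189), Slc7a1 (0.491131, 0.0261), Atf3 (0.891208, 0.0345) and Slc7a5 (0.86553, 0.036). It was negative for Ddit3 (-1.45075, 0.0123) and Ppp1r15a (-0.633091, 0.0344). For Atf3 the 2 differences behind it were a log2 fold change of 1.08 ± 0.16 SE in double KO against Blm KO and 0.19 ± 0.16 SE in Recql KO against WT. Groups of 3 libraries are too small for a test of single far samples.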

How the results depend on the processing

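No value for a member changed sign past the threshold under any alternative run, and RLE scaling, no filter on low counts and the CPM filter left every count of called members within 1.5 times. DESeq2 called 9 members (main 2) in Blm KO against WT, 7 (main 0) in double KO against WT and 4 (main 1) in double KO against Blm KO. Over all genes it called 947 in place of 112, 337 in place of 18 and 1404 in place of 291 in the same comparisons, and 2616 in place of 1554 for the interaction. With the compared groups only, double KO against Blm KO gave 0 members and 8 of all genes (main 291), and double KO against WT 0 of all genes (main 18). In a fit with Y-linked level added as a term, 1 member was called in Blm KO against WT and 5 for the interaction (main 9), and over all genes 37 in Blm KO against WT, 45 in double KO against WT and 857 for the interaction. With the libraries low in Y-linked transcripts left out, so that each mutant genotype has 1 library and is assumed to vary as the WT libraries do, the counts were 0 for Blm KO against WT, 3 for Recql KO against WT (main 12), 0 for double KO against Blm KO, 1 for double KO against Recql KO (main 18), 0 for the interaction and 2 for any difference (main 24). Over all genes that fit called 2, 1128 (main 4444), 0, 373 (main 3681), 5 and 605 (main 5342) in the same order, and 3 in double KO against WT. The cause of these changes was not tested, and the fewer libraries and the Y-linked level cannot be told apart in that fit.

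Leaving out each library in turn gave 1 to 5 members for Blm KO against WT, 8 to 13 for Recql KO against WT, 0 to 0 for double KO against WT, 0 to 1 for double KO against Blm KO, 10 to 18 for double KO against Recql KO, 4 to 8 for the interaction and 15 to 25 for any difference. Same-numbered libraries deviated together in Blm KO and WT (correlation 0.10, 0.23 and 0.15, each best with its own number), and in no other 2 genotypes for all 3 numbers (-0.13 to 0.31, over 0.1 in 7 of all 18 pairs). With the replicate block, which changed no member's call in Blm KO against WT, the counts were 2, 12, 1, 1, 19, 8 and 23 in the same order, and the 1 call in double KO against WT was Atf4. Over all genes the block gave 50 calls in double KO against WT and 762 in double KO against Blm KO. Cbs, at 0.493 to 1.39 CPM, had a wide 95% interval of its log2 fold change in Blm KO against WT, -0.74 to 0.78. Differences within that range are compatible with these data, and the range is not a limit of detection.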
